A study of Bos taurus with 24 samples.

Results

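The genes of oxidative phosphorylation were followed through 24 single bovine early blastocysts. Of the 24621 rows of the exon count table, 109 belong to this set. The 13 mitochondrial rows (ATP8, COX1, COX3, MT-ATP6, MT-CO2, MT-CYB, MT-ND3, MT-ND4, ND1, ND2, ND4L, ND5 and ND6) were taken by name, and the 96 nuclear rows by the symbol beginnings NDUF, UQCR, ATP5 and COX4 to COX8, with SDHB, SDHC, SDHD and CYC1 added by name. The rule used names alone and no measured value, although it was chosen with earlier results of these data known. The mitochondrial and nuclear rows were described apart throughout.

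Oxidative phosphorylation makes ATP in the inner mitochondrial membrane. Complexes I (NADH dehydrogenase), II (succinate dehydrogenase), III (cytochrome bc1) and IV (cytochrome c oxidase) pass electrons to oxygen and, except for complex II, pump protons, and complex V (ATP synthase) uses the proton gradient. Complexes I, III, IV and V mix subunits encoded in mitochondrial DNA, which is transcribed as long polycistronic RNAs and then cut into single messages, with subunits encoded in the nucleus, while complex II is wholly nuclear. The bovine embryo inherits its mitochondria from the oocyte, and oxygen consumption is known to rise as the blastocyst forms, when the trophectoderm begins to pump ions into the cavity.

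All embryos were Holstein early blastocysts of the best morphological grade, sired by the same bull. The 8 in vivo embryos (A1 to A4 and A6 to A9, of which 5 were male and 3 female) were flushed from 3 superovulated cows. The 8 serum embryos (B1 to B8, 3 male and 5 female) came from slaughterhouse oocytes matured with 20% and cultured with 5% fetal bovine serum. The 8 serum-free embryos (C1 to C4, C6 to C8 and C10, 5 male and 3 female) came from like oocytes matured with epidermal growth factor and cultured with bovine serum albumin, insulin, transferrin and selenium. In vitro embryos were collected between day 6 and 7 in 3 experiments, and in vivo embryos were flushed 7 days after insemination. Day of collection was not entered in any test. Which cow, experiment or sequencing lane an embryo came from was not in the labels, so these could not be entered in any test. The study asked how far each culture system moves expression away from the in vivo state and whether male and female embryos differ in this.

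Each embryo held between 3253051 and 9000447 exon counts, with the highest total in serum embryo B5. The blastocyst label was checked on markers. The summed level of the 7 of 8 listed trophectoderm markers found ran from 7576 to 14871 CPM in vivo (CPM being counts scaled to library size by TMM factors), from 328 to 5146 in serum and from 5004 to 28770 in serum-free embryos. The 4 inner cell mass markers summed to 298 to 410, 279 to 642 and 192 to 462 CPM. They did not move together. POU5F1 ran from 185 to 250 CPM in vivo and from 28.9 to 202 in serum. NANOG ran from 1.70 to 27.1 and from 1.14 to 234, KLF4 from 87.6 to 159 and from 96.4 to 385, and SOX2 from 6.05 to 14.6 and from 5.65 to 50.8. The 4 hypoblast markers summed to 346 to 596 CPM in vivo, 27.9 to 234 in serum and 130 to 400 in serum-free embryos, with SOX17 at 0 in all in vivo and serum embryos. PDGFRA carried most of this sum, with 324 to 581 CPM in vivo and 21.5 to 207 in serum. GATA6 did not fall in the same way, with 14.1 to 27.7 and 6.36 to 35.7, and GATA4 was at most 5.81 CPM in these embryos. Of cells that could be carried along, cumulus markers (10 of 12 listed were found) summed to at most 59.9 CPM with PTX3 at 0 throughout, oviduct or uterine markers (5 of 5) to at most 19.3 CPM with FOXJ1 at 0, red blood cell markers (2 of 4) to at most 44.3 CPM, and leukocyte markers (5 of 5) to 11.3 to 34.0 CPM in vivo, 30.3 to 117 in serum and 4.18 to 40.9 in serum-free embryos. KRT8 and KRT18 carried most of the trophectoderm sum in vivo. KRT8 ran from 5968 to 11754 CPM in vivo and from 40.1 to 4048 in serum. KRT18 ran from 1025 to 2845 and from 47.2 to 880, and GATA2 from 26.9 to 49.0 and from 1.62 to 22.5. GATA3 ran from 53.6 to 109 and from 0.734 to 56.8, and IFNT from 4.15 to 49.8 and from 0 to 5.83. CDX2 was at most 2.5 CPM in these embryos. TFAP2C, another trophectoderm marker, did not fall, with 126 to 272 in vivo and 160 to 462 in serum. CSF1R, of the leukocyte list, ran from 3.87 to 30.6 CPM in vivo and from 19.0 to 113 in serum, while PTPRC and CD3E, which define leukocytes, were at most 3.17 CPM in these embryos. The sums of these lists were not tested, and neither was their part in the results below. In whole embryos, fewer cells of a type and less RNA per cell cannot be told apart.

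The 13 mitochondrial rows together took 5.47 to 9.68% of an embryo's exon counts in vivo (7.10% ± 1.45, SD, n = 8), 4.18 to 9.25% in serum (6.17% ± 1.76, n = 8) and 3.57 to 8.07% in serum-free embryos (6.24% ± 1.30, n = 8). The 3 ranges overlapped over most of their width, and the group means differed by less than the SDs. The 96 nuclear rows took 2.68 to 3.30% in vivo (2.92% ± 0.19), 1.66 to 3.59% in serum (2.55% ± 0.55) and 2.54 to 3.50% in serum-free embryos (2.90% ± 0.32). Serum embryos thus held both the lowest share, in B2, and the highest, in B1, and had the widest spread. These sums carry no p-value.

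Of the 109 rows, 101 were tested in at least 1 comparison, which required at least 15 counts in every embryo of 1 of the groups compared. The other 8 were all nuclear. COX4I2 and COX7A1, the lung-type subunit 4 and the heart and muscle-type subunit 7A of complex IV, had at most 1 and 3 counts in any embryo, and COX6A2, the heart and muscle-type subunit 6A, at most 2. COX6B1 had at most 7 counts and its testis-type relative COX6B2 1 to 35, while the COX5B_2 and COX7C_2 copies reached 4 and 6. Because only uniquely mapped fragments were counted, a low count such as that of COX6B1 need not mean little RNA. NDUFA4L2, the hypoxia-responsive relative of NDUFA4, had 59 counts in serum embryo B4, 12 in B3, 1 in in vivo embryo A2 and 0 in the other 21. Apart from COX6B1, the common forms listed with these rows were well covered. COX4I1 ran from 523 to 726 CPM in vivo (median 606), 313 to 783 in serum (504) and 515 to 757 in serum-free embryos (609), and NDUFA4, a complex IV-associated subunit named for complex I, from 599 to 906 (729), 660 to 1072 (880) and 612 to 943 (737). Neither passed in any of the 3 culture comparisons.

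The question asked first of the serum embryos was how far they lay from the in vivo state. By edgeR's quasi-likelihood test, with p-values adjusted over all 7339 genes tested, 28.3% of genes passed in this comparison, 13.4% higher and 14.8% lower in vivo. Of the 13 mitochondrial rows 3 passed, of which MT-CO2 and COX3 were higher and ND1 was lower in vivo. Of the 87 nuclear rows tested 22 passed, a share close to that of all genes, but 19 of them were higher and 3 lower in vivo. The log2 fold change, in vivo over serum, was positive in 61 of 87 nuclear rows with a median of 0.23, against 49.1% of all genes and a median of -0.01. With a fold of at least 2 asked for as well, 1 mitochondrial and 1 nuclear row passed, where 13.8% of all genes did.

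MT-CO2, subunit II of cytochrome c oxidase, which takes up electrons from cytochrome c, was at 4153, 5734 and 9191 CPM (lowest, median and highest) in vivo, at 2141, 3091 and 6814 in serum and at 4212, 5546 and 8260 in serum-free embryos. Of the serum embryos 7 lay at or below 3640 CPM, under every in vivo and serum-free embryo, and B1 was the exception. The log2 fold change was 0.81 (SE 0.21, adjusted p = 0.00733) in vivo over serum and 0.76 (SE 0.20, adjusted p = 0.0201) serum-free over serum, while in vivo over serum-free it was 0.06.

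COX3, subunit III of the same complex, ran from 12692 to 20432 CPM in vivo (median 16142), from 8508 to 20610 in serum (10769) and from 10605 to 17819 in serum-free embryos (12645). The in vivo embryos were higher than the serum embryos by 0.46 on the log2 scale (SE 0.17, adjusted p = 0.0446), although B1 lay above all of them, and this call was kept under only 5 of 10 other ways of processing and when 2 of 16 embryos were left out in turn. COX1, the catalytic subunit, had a log2 fold change of 0.74 (adjusted p = 0.0577) in the same comparison, with 8147 to 26109 CPM in vivo and 4215 to 20170 in serum.

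ND1, a membrane subunit of complex I near the ubiquinone site, moved the other way. It was at 1388, 1905 and 2699 CPM in vivo, 1343, 3496 and 9850 in serum and 1203, 2461 and 3225 in serum-free embryos. Serum embryos B1, B2, B3, B5 and B7 lay above all in vivo embryos, while B4, B6 and B8 lay within or below their range. The log2 fold change in vivo over serum was -1.12 (SE 0.32, adjusted p = 0.0144). For ND5, a proton-pumping subunit, it was -0.55 (adjusted p = 0.118), and for ND6, the one protein read from the opposite strand of mitochondrial DNA, -0.47 (adjusted p = 0.179). The remaining rows MT-CYB (0.26), MT-ND3 (-0.12), MT-ND4 (0.31), ND2 (0.01), ND4L (0.43), ATP8 (0.19) and MT-ATP6 (0.16) did not pass.

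**Figure D1:**
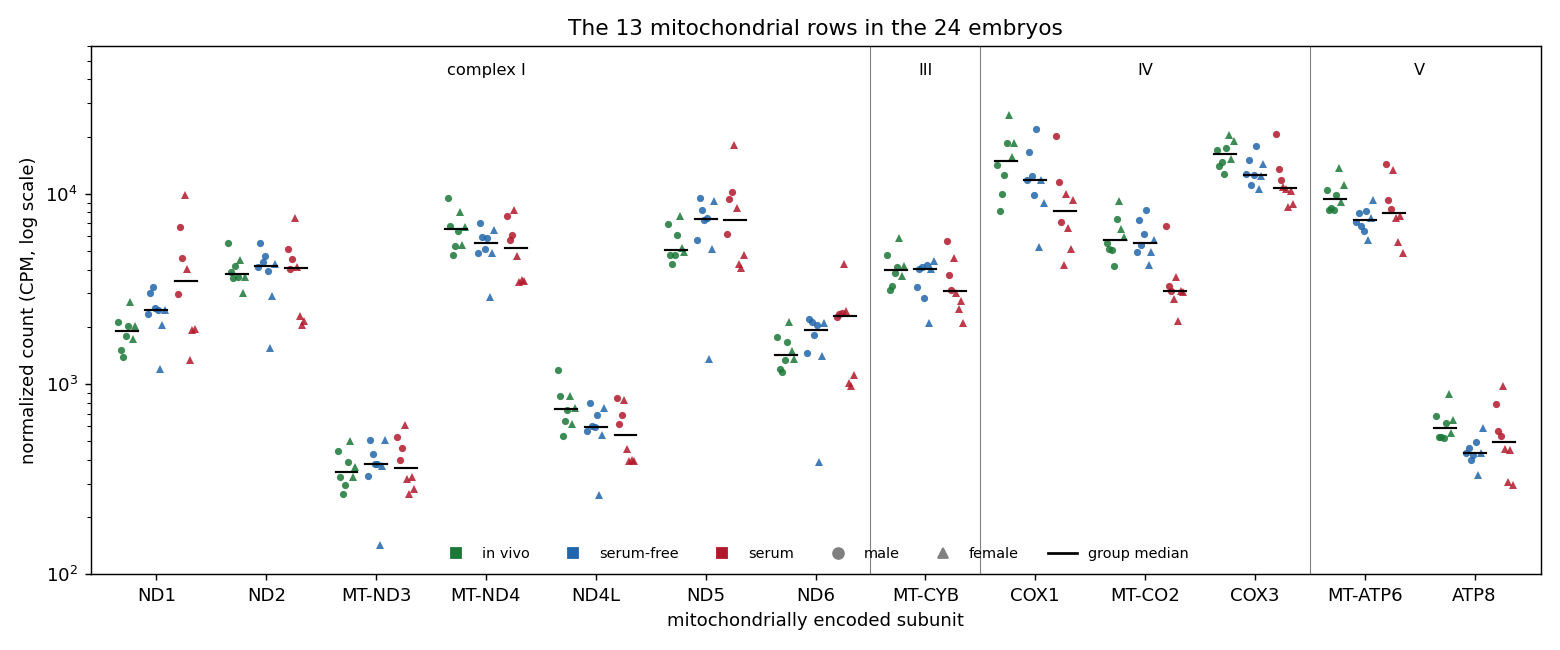
Level of each of the 13 mitochondrial rows in single embryos, in CPM on a log axis, with 1 point per embryo (circle male, triangle female) coloured by culture group and a bar at the group median. Serum embryos had ND1 at a median of 3496 CPM against 1905 in vivo, and MT-CO2 at 3091 against 5734, with the groups overlapping in every row.

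Since the 13 rows are read from long shared transcripts, their shares of the mitochondrial sum were set out per embryo, as a description with no test. ND1 made up 2.40 to 2.98% of the mitochondrial counts in the 8 in vivo embryos (median 2.58%), 2.93 to 4.95% in serum-free embryos (3.67%) and 3.17 to 11.4% in serum embryos (5.66%). Every serum embryo thus had a larger ND1 share than every in vivo embryo. The same held for ND6, at 1.71 to 2.22% in vivo and 2.30 to 4.93% in serum. These were 2 of the 13 rows by share, while by CPM the groups overlapped in all 13 rows and did not overlap in 7.09% of all genes tested. Serum-free embryos overlapped the in vivo embryos in the shares of all 13 rows. Against serum embryos they did not overlap in 1 row, MT-CO2, with 8.23 to 11.7% against 3.25 to 7.29%, and by CPM they overlapped in this row too.

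Summed by complex, the 7 complex I rows held 25.0 to 34.4% of the mitochondrial counts in vivo, 27.2 to 57.2% in serum and 21.5 to 38.2% in serum-free embryos. The 3 complex IV rows held 45.7 to 55.0%, 20.8 to 50.7% and 42.1 to 57.3%. The count ratio of complex I to complex IV rows was 0.455 to 0.753 in vivo, 0.536 to 2.75 in serum and 0.387 to 0.884 in serum-free embryos. Serum embryo B2 had the highest complex I share, the lowest complex IV share and the highest ratio. It also had the lowest level of the trophectoderm keratin KRT8, 40.1 CPM against 5968 to 11754 in vivo, and the part of this in its mitochondrial composition was not tested. Complex V rows, ATP8 and MT-ATP6, held 13.2 to 15.4%, 12.2 to 19.0% and 10.3 to 16.9%, and the complex III row MT-CYB 5.24 to 6.37%, 4.92 to 6.43% and 4.67 to 6.90%.

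**Figure D2:**
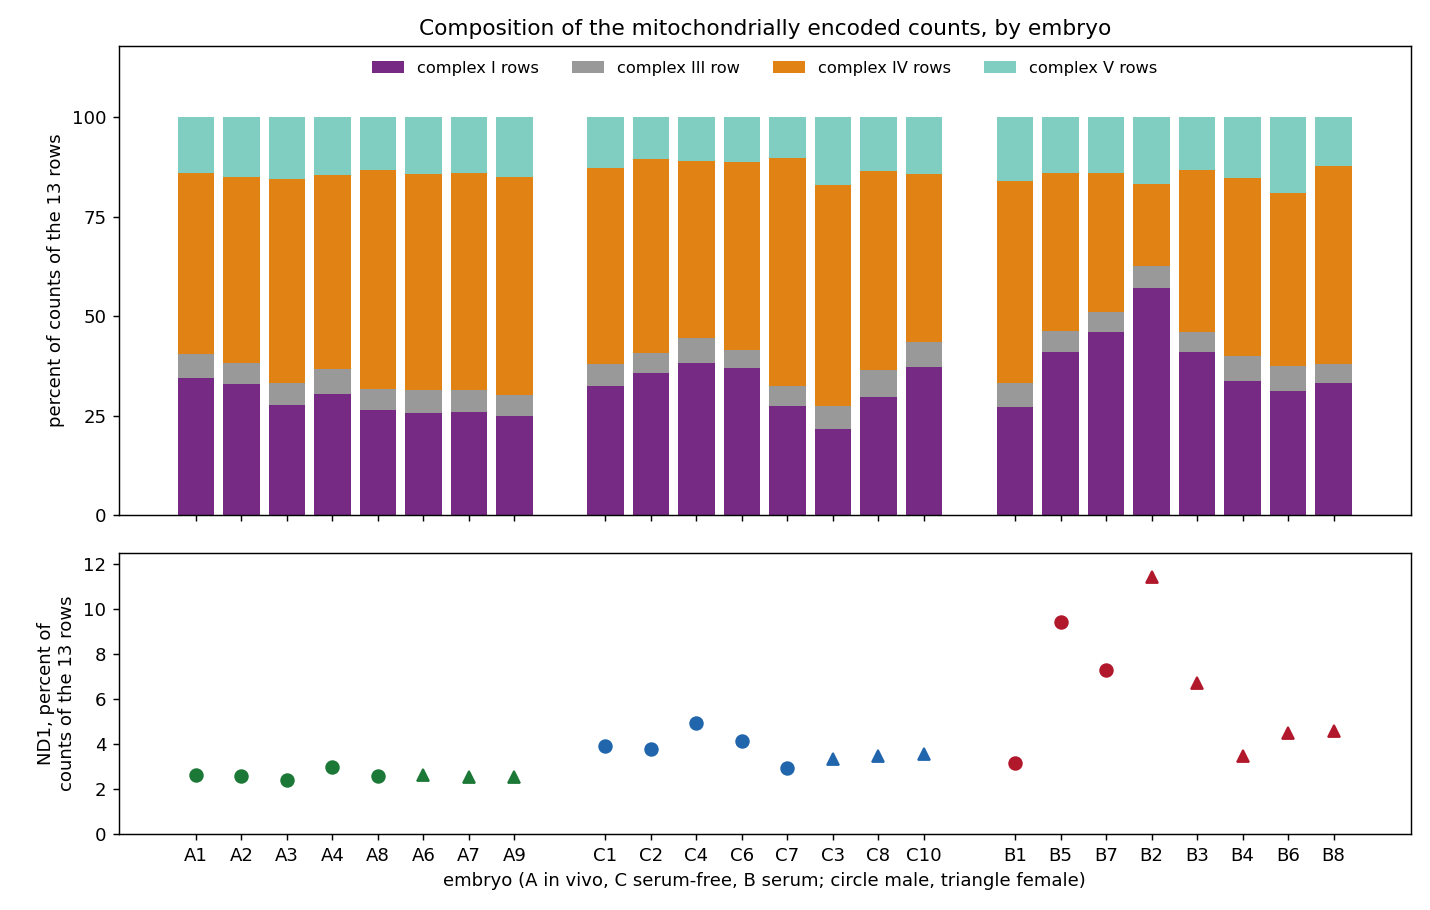
Percent of the 13 mitochondrial rows' counts held by the rows of each complex, as 1 stacked bar per embryo (upper panel), and by ND1 in the same embryos (lower panel, circle male, triangle female). ND1 held at most 2.98% in vivo and at least 3.17% in serum, and B2, with 57.2% of its mitochondrial counts in complex I rows, lay apart from the other embryos.

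Count ratios were also formed for rows that overlap on mitochondrial DNA. ATP8 to MT-ATP6 was 0.0583 to 0.0649 in vivo, 0.0548 to 0.0729 in serum and 0.0578 to 0.0668 in serum-free embryos, and ND4L to MT-ND4 was 0.107 to 0.128, 0.0975 to 0.114 and 0.0909 to 0.118. ND6 to ND5, genes read from opposite strands, was 0.253 to 0.285, 0.231 to 0.366 and 0.226 to 0.285, with the 0.366 in B1. Each of these pairs shares bases, and the cDNA kit does not keep strand, so reads over the shared stretch cannot be told apart and the members of a pair are not independent. For the same reason the ND6 counts, along the whole gene, can include RNA read from the other strand.

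The nuclear rows were taken complex by complex, first for in vivo against serum. Of the 7 nuclear subunits of the catalytic core of complex I 5 passed, all higher in vivo, against 28.3% of all genes, and all 7 had a positive log2 fold change with a median of 0.52. NDUFV1, NDUFV2 and NDUFS1 were among the 5 and did not overlap between in vivo and serum embryos. The count fell to 3 when in vivo embryo A1, A2, A3, A4, A7 or A8 or serum embryo B3, B5 or B7 was left out.

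NDUFV1, which binds NADH and the flavin at the entry of complex I, was at 336, 390 and 500 CPM in vivo, 102, 278 and 331 in serum and 239, 273 and 394 in serum-free embryos. No serum embryo reached the lowest in vivo embryo. In vivo over serum the log2 fold change was 0.66 (SE 0.18, adjusted p = 0.012) and in vivo over serum-free 0.49 (SE 0.12, adjusted p = 0.0198). It passed under all 10 other ways of processing and with each of the 16 embryos left out in the comparison with serum.

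NDUFV2, its iron-sulfur partner, was at 339, 385 and 424 CPM in vivo, 42.3, 218 and 315 in serum and 273, 323 and 422 in serum-free embryos, again with no overlap between in vivo and serum (log2 fold change 0.93, SE 0.26, adjusted p = 0.0129). NDUFS1, the largest iron-sulfur subunit, named for its lack of overlap after its values were seen, ran from 249 to 424 CPM in vivo (median 337), from 113 to 246 in serum (204) and from 187 to 373 in serum-free embryos (302). Its log2 fold change was 0.76 (SE 0.16, adjusted p = 0.00243) in vivo over serum and 0.60 (SE 0.17, adjusted p = 0.0225) serum-free over serum.

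The 30 accessory subunits of complex I, which surround and stabilise the core, had 3 rows higher and 1 lower in vivo and a median log2 fold change of 0.16. NDUFB10, of the membrane arm, was at 157, 173 and 191 CPM in vivo, 23.2, 97.9 and 140 in serum and 142, 181 and 238 in serum-free embryos. The serum embryos lay below both other groups with no overlap, and the log2 fold change was 0.93 (SE 0.27, adjusted p = 0.0143) in vivo over serum and 1.05 (SE 0.28, adjusted p = 0.0196) serum-free over serum.

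NDUFS6, an accessory zinc-binding subunit, was at 40.5 to 62.3 CPM in vivo (median 50.7), 8.20 to 45.4 in serum (30.3) and 30.3 to 68.5 in serum-free embryos (54.2). It was higher in vivo than in serum by 0.87 on the log2 scale (adjusted p = 0.0213). NDUFA5, of the matrix arm, was the accessory subunit lower in vivo, with 126 to 166 CPM against 134 to 284 in serum and 140 to 213 in serum-free embryos (in vivo over serum -0.44, adjusted p = 0.0441).

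The 6 complex I assembly factors of the NDUFAF type, which help build the complex without staying in it, were split, with 1 higher and 1 lower in vivo. NDUFAF2, a late-stage assembly chaperone, was at 3.40, 6.99 and 13.9 CPM in vivo, 9.78, 21.7 and 32.0 in serum and 11.8, 14.1 and 23.5 in serum-free embryos. Of the serum embryos 7, all but B2, lay above every in vivo embryo, as did 5 serum-free embryos, all but C2, C6 and C7. It was the nuclear row that passed with a fold of at least 2 against serum (log2 fold change -1.50, SE 0.32, adjusted p = 0.00233) and against serum-free (-1.02, SE 0.28, adjusted p = 0.0329), from 14 to 201 counts per embryo. In the latter comparison 2.2% of all genes passed with such a fold.

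Complex II, which feeds electrons from succinate, had 2 of 3 rows of the set higher in vivo than in serum. SDHD, a membrane anchor, was at 127, 129 and 151 CPM in vivo, 39.1, 83.7 and 120 in serum and 79.2, 134 and 184 in serum-free embryos, with no overlap between in vivo and serum (log2 fold change 0.67, SE 0.20, adjusted p = 0.018). SDHC, the other anchor, ran from 384 to 608 CPM in vivo, from 253 to 454 in serum and from 362 to 787 in serum-free embryos (in vivo over serum 0.41, adjusted p = 0.0367). SDHB, the iron-sulfur subunit, was at 172 to 235 CPM in vivo, 115 to 193 in serum and 128 to 169 in serum-free embryos, and its log2 fold change over serum was 0.31 (adjusted p = 0.0686).

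SDHA, the flavoprotein of complex II, is not in the set by its rule and was listed with the other electron transport genes. It also served as a reference gene in the study's quantitative PCR. It was at 735, 879 and 1112 CPM in vivo, 288, 546 and 698 in serum and 613, 742 and 943 in serum-free embryos. No serum embryo reached the in vivo range, and the log2 fold change in vivo over serum was 0.83 (SE 0.18, adjusted p = 0.00279), kept under all other ways of processing and with each embryo left out.

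All 9 nuclear complex III rows had a positive log2 fold change in vivo over serum (median 0.29), and 2 passed. UQCR11, the smallest subunit, was at 81.7 to 127 CPM in vivo (median 104), 15.7 to 142 in serum (50.7) and 93.8 to 172 in serum-free embryos (115). The 142 CPM belonged to B1, and the next serum embryo lay at 64.9 CPM, below all in vivo and serum-free embryos. The log2 fold change was 0.88 (SE 0.30, adjusted p = 0.036) in vivo over serum. CYC1, the cytochrome c1 that hands electrons to cytochrome c, did not pass (0.29), with 51.4 to 86.4 CPM in vivo, 20.1 to 149 in serum and 58.5 to 107 in serum-free embryos.

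The nuclear complex IV rows were split in direction. Of the 13 tested 2 were higher in vivo than in serum, 6 had a positive log2 fold change and the median was -0.09. COX6A1, the common subunit 6A, ran from 675 to 894 CPM in vivo, from 404 to 1013 in serum and from 659 to 988 in serum-free embryos (in vivo over serum 0.45, adjusted p = 0.0412), a call kept when 3 of the 16 embryos were left out in turn. COX7A2, the common subunit 7A, did not pass (-0.43, adjusted p = 0.0778), with 303 to 517, 317 to 922 and 348 to 757 CPM. COX7A2L, a factor of supercomplex assembly, was lower in vivo (-0.40, adjusted p = 0.0497), with 356 to 509 CPM against 402 to 736 in serum, and kept that call under 4 of 10 other ways of processing.

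Complex V had 4 of 16 nuclear rows higher in vivo than in serum and none lower, with a median log2 fold change of 0.40. The 3 genes for subunit c, whose mature proteins form the same proton-driven ring, were compared. ATP5G2 was at 309, 344 and 421 CPM in vivo, 60.9, 178 and 394 in serum and 249, 287 and 450 in serum-free embryos, and ATP5G3 at 851, 994 and 1121, 229, 527 and 1235, and 656, 882 and 1537. Both were higher in vivo than in serum, by 0.91 (SE 0.26, adjusted p = 0.0132) and 0.75 (SE 0.25, adjusted p = 0.0293) on the log2 scale. ATP5G1, at 286 to 389, 39.4 to 572 and 315 to 671 CPM, had a log2 fold change of 0.39 and did not pass. ATP5B, the catalytic beta subunit, was at 3119, 4078 and 4964 CPM in vivo, 2210, 2948 and 3764 in serum and 2488, 3072 and 3699 in serum-free embryos (in vivo over serum 0.44, SE 0.13, adjusted p = 0.0146).

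**Figure D3:**
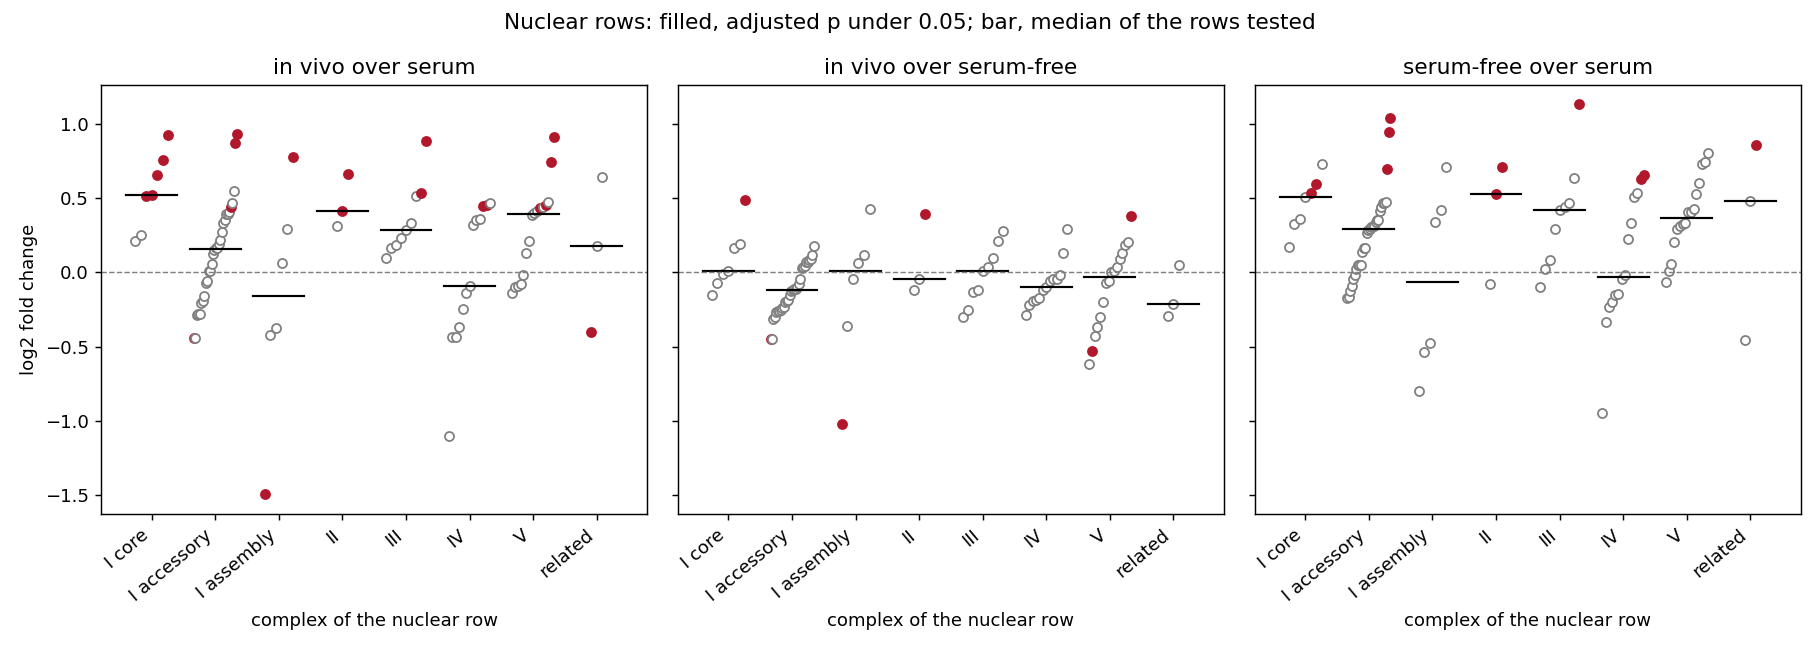
Log2 fold change of each nuclear row tested, grouped by complex and role, in the 3 culture comparisons, with filled points for rows with an adjusted p under 0.05 and a bar at each group's median. All 7 core subunits of complex I lay above 0 in vivo over serum, while complex IV rows, numbered copies counted singly, lay on both sides with a median of -0.09.

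Groups overlapped in most nuclear rows. In vivo and serum embryos did not overlap in 5 of the 87 (NDUFB10, NDUFS1, NDUFV1, NDUFV2 and SDHD), all higher in vivo, where 7.09% of all genes did not overlap. Within the serum group B1 was the highest embryo in 60 of the 87 rows and B2 the lowest in 45. In the study's read summary, the serum males matching B1 and B7 by order and exon totals had the fewest mapped fragments of all embryos. They were not the embryos with the fewest sequenced fragments. The part of mapping in the values of B1 and B7 was not tested. Without B1, 34 nuclear rows passed, 21 of them among the 22 with all embryos. With other single embryos left out the count fell, to 11 without A1, A3 or A8, to 12 without A7 or B7, to 13 without A2 or B5 and to 14 without A4. Scaled to library totals without TMM factors, 9 nuclear rows were higher and 6 lower in vivo, with a median of 0.17, and with sex as a covariate 14 were higher and 3 lower.

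**Figure D4:**
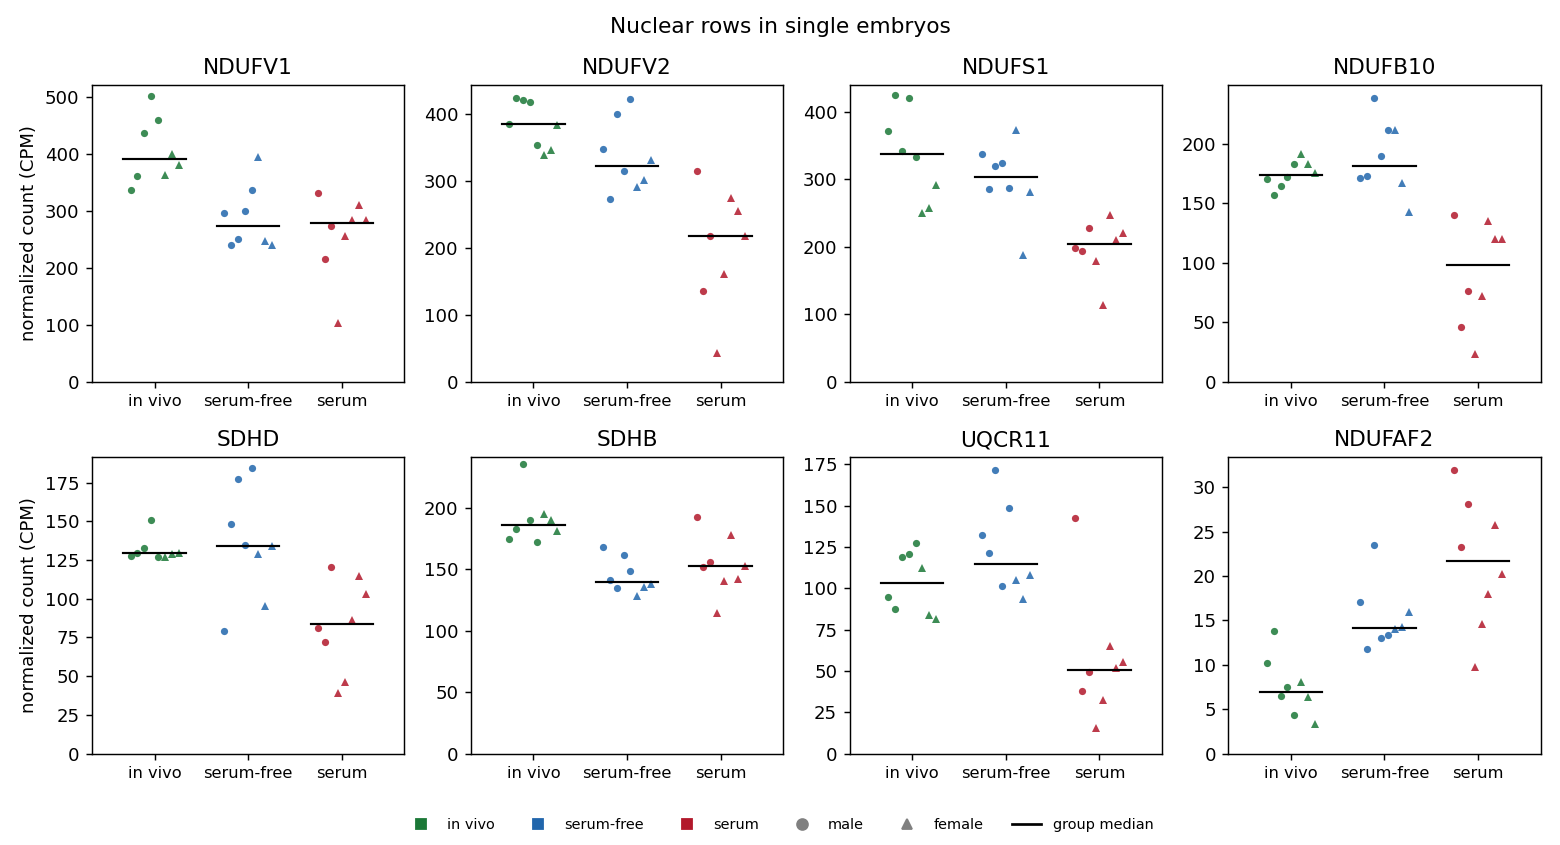
Level of 8 nuclear rows in single embryos, in CPM on linear axes from 0, with 1 point per embryo (circle male, triangle female), coloured by culture group, and a bar at the group median. NDUFV1, NDUFV2, NDUFS1, NDUFB10 and SDHD had all serum embryos below all in vivo embryos, and NDUFAF2 had a median of 21.7 CPM in serum against 6.99 in vivo.

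Between in vivo and serum-free embryos 5.82% of 7314 genes passed. This comparison shares its in vivo embryos with the one above, and the values are given side by side. Of the mitochondrial rows, ATP8 and MT-ATP6, the overlapping genes for subunits 8 and a of ATP synthase, were higher in vivo. MT-ATP6 ran from 8198 to 13686 CPM in vivo (median 9422) and from 5750 to 9245 in serum-free embryos (7288), with a log2 fold change of 0.42 (SE 0.12, adjusted p = 0.0466), and ATP8 from 522 to 887 (588) and from 332 to 586 (434), with 0.47 (SE 0.13, adjusted p = 0.0362). The ranges of both overlapped. Neither passed when any of A1, A6, A7, A8, A9, C1, C2, C4, C6 or C8 was left out, and 1 passed without C3. ND1 was -0.33 (adjusted p = 0.249).

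Of the 87 nuclear rows 6 passed against serum-free, 3 higher and 3 lower in vivo, where 2.45% of all genes were higher and 3.38% lower. The log2 fold change was positive in 33 of 87, against 49.7% of all genes, with a median of -0.07. An unadjusted p under 0.05 was found for 16 rows and for 21.5% of all genes. NDUFV1 (above), ATP5B (0.38, SE 0.10, adjusted p = 0.0326) and SDHB (0.39, SE 0.10, adjusted p = 0.0249) were higher in vivo, and the SDHB groups did not overlap, where 0.93% of all genes did not. The lower rows were NDUFAF2, ATP5I and NDUFA11. ATP5I, the membrane subunit e that helps hold ATP synthase in dimers, was at 80.01 to 111 CPM in vivo, 48.0 to 138 in serum and 108 to 159 in serum-free embryos (-0.53, SE 0.12, adjusted p = 0.0128). NDUFA11, a membrane-arm accessory subunit of complex I, was at 114 to 159, 89.3 to 213 and 134 to 203 CPM (-0.45, SE 0.11, adjusted p = 0.0208). The count of 6 fell to 3 without A3 or A7, and no mitochondrial or nuclear row passed when all 24 embryos shared 1 fit.

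Between the culture systems themselves, 16.3% of 7181 genes passed, 8.02% higher and 8.29% lower in serum-free embryos. MT-CO2 was the mitochondrial row that passed (above). Of 88 nuclear rows 11 passed, all higher in serum-free embryos, and 67 had a positive log2 fold change with a median of 0.32, against 48.7% and a median of -0.02 over all genes. With a fold of at least 2, UQCR11 and NDUFB10 passed, where 8.91% of all genes did. They were 2 of 7 complex I core subunits, 3 of 30 accessory subunits, 2 of 3 complex II rows, 1 of 9 complex III rows, 2 of 14 complex IV rows and 1 of 3 related rows. None of the 16 complex V rows passed, although 15 had a positive fold change and 7 an unadjusted p under 0.05, which 33.1% of all genes had. UQCR11 (1.13, SE 0.31, adjusted p = 0.0217), NDUFB10, NDUFS6 (0.95, adjusted p = 0.031), SDHD (0.71, SE 0.24, adjusted p = 0.0464) and ATP5SL, a distant relative of an ATP synthase subunit (0.86, SE 0.26, adjusted p = 0.0314), had the largest changes. In NDUFB10 the groups did not overlap, where 2.37% of all genes did not.

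This count also rested on single embryos. It fell to 3 without C7, 4 without B3, 5 without C6, B5 or B7 and 6 without C2 or C4, and it was 28 without B1, of which 10 were among the 11 with all embryos. With library totals in place of TMM factors 6 were higher and 1 lower in serum-free embryos, with sex as a covariate likewise 6 and 1, and with all 24 embryos in 1 fit 22 and 2.

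The wider pathway was described from lists of 116 genes, of which 91 were found. Of the 12 other electron transport genes tested 5 were higher in vivo than in serum and none lower, where 13.4% of all genes were higher and 14.8% lower, with a median log2 fold change of 0.49. ETFA, which carries electrons from fatty acid oxidation, was at 124, 195 and 234 CPM in vivo, 43.5, 76.1 and 93.1 in serum and 86.1, 124 and 168 in serum-free embryos. Serum embryos lay below all in vivo embryos (1.40, SE 0.17, adjusted p = 4.74e-05), and ETFA also passed in vivo over serum-free (0.61, adjusted p = 0.0212) and serum-free over serum (0.80, adjusted p = 0.012). ETFDH, which passes those electrons to ubiquinone, was at 10.7 to 59.2 CPM in vivo and 16.2 to 30.1 in serum (1.07, adjusted p = 0.00989).

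Of the 29 tested assembly factors that lack a symbol beginning of the rule, 2 were higher in vivo than in serum (13.4% of all genes were), none lower, with a median of -0.02. ACAD9, an acyl-CoA dehydrogenase relative that assembles complex I, was at 51.9, 70.2 and 119 CPM in vivo, 4.74, 18.7 and 40.8 in serum and 24.5, 42.2 and 77.3 in serum-free embryos. The in vivo and serum embryos did not overlap (1.92, SE 0.32, adjusted p = 0.000505). ATPIF1, the inhibitor that blocks ATP hydrolysis by ATP synthase, was at 284, 322 and 402 CPM in vivo, 30.1, 75.7 and 201 in serum and 208, 353 and 550 in serum-free embryos. All serum embryos lay below all embryos of both other groups (in vivo over serum 1.83, SE 0.28, adjusted p = 0.000265, and serum-free over serum 1.98, SE 0.32, adjusted p = 0.00236). Both passed in vivo over serum under all other ways of processing and with each embryo left out.

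Genes that transcribe and process mitochondrial RNA were listed apart. None of the 10 tested mitochondrial DNA transcription and replication genes was higher and 1 was lower in vivo than in serum, where 14.8% of all genes were lower. TFAM, which packages mitochondrial DNA and starts its transcription, was at 66.7 to 106 CPM in vivo, 79.3 to 150.2 in serum and 51.6 to 91.5 in serum-free embryos and did not pass (-0.23), nor did POLRMT, the mitochondrial RNA polymerase (-0.70). Of 15 mitochondrial RNA processing genes 4 were lower in vivo and none higher, against 14.8% and 13.4% of all genes. ELAC2, which cuts the transfer RNAs that separate the messages, was at 3.03, 5.56 and 8.85 CPM in vivo, 9.04, 13.1 and 28.4 in serum and 4.03, 6.76 and 11.5 in serum-free embryos, with no overlap between in vivo and serum (-1.31, SE 0.31, adjusted p = 0.00527). FASTKD2, which binds mitochondrial RNA, was at 17.2 to 54.2 CPM in vivo and 14.5 to 133 in serum (-1.02, adjusted p = 0.0245).

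Of the 9 tested regulators of nuclear subunit genes, 1 was higher and 1 lower in vivo, against 13.4% and 14.8% of all genes. GABPA, the DNA-binding part of nuclear respiratory factor 2, was at 69.9, 87.9 and 100.4 CPM in vivo, 111, 193 and 483 in serum and 94.6, 115 and 147 in serum-free embryos. Every serum embryo lay above every in vivo embryo (-1.41, SE 0.26, adjusted p = 0.000875), and it passed in vivo over serum-free (-0.43, adjusted p = 0.0356) and serum-free over serum (-0.98, adjusted p = 0.0179). PPARGC1A, a coactivator that drives mitochondrial biogenesis, was at 5.03, 14.9 and 27.3 CPM in vivo, 0.312, 4.61 and 11.6 in serum and 4.81, 14.9 and 45.5 in serum-free embryos (in vivo over serum 1.64, adjusted p = 0.0178, and serum-free over serum 1.90, adjusted p = 0.0218). Of 6 tested adenine nucleotide and proton carriers 2 were higher in vivo than in serum, against 13.4% of all genes. SLC25A5, an ADP/ATP exchanger, passed serum-free over serum (1.19, adjusted p = 0.0488).

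Since the cultures held unequal numbers of each sex, the comparisons were repeated within sex. Among males, 19% of 7762 genes passed between 5 in vivo and 3 serum embryos, 9.77% higher and 9.19% lower in vivo. ND1 (-1.42, SE 0.23, adjusted p = 0.00276), ND6 (-0.70, adjusted p = 0.0175) and ND5 (-0.67, adjusted p = 0.0409) were lower in vivo. ND1 was at 1388, 1518, 1798, 2027 and 2122 CPM in the male in vivo embryos and at 2973, 4592 and 6720 in the male serum embryos, with no overlap. Of the nuclear rows 6 of 87 passed, which were NDUFB10, NDUFS1, NDUFV2 and ATP5SL higher and NDUFA5 and NDUFAF2 lower in vivo. ATP5SL was at 40.9 to 62.9 CPM in the males in vivo and 18.2 to 23.7 in serum (1.30, SE 0.29, adjusted p = 0.0101). The groups did not overlap in 13 nuclear rows, where 26.1% of all genes did not. The nuclear count was 3 without A1, A2, A3 or B7 and 33 without B1, and the mitochondrial count was 1 without B7.

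Male in vivo and serum-free embryos differed in 1.76% of genes, of which those lower in vivo made up 1.07% of all genes tested. ND1 was lower in vivo (-0.63, SE 0.15, adjusted p = 0.0452), as were ATP5G1 (-0.71, SE 0.14, adjusted p = 0.0316) and ATP5I (-0.66, SE 0.15, adjusted p = 0.0397). Neither nuclear row passed when A1, A2, A3, A4, A8, C2 or C4 was left out, 1 passed without C6 and 4 without C7. ND1 did not pass when any of the 5 in vivo males, C2, C4 or C6 was left out.

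Among females, 0.418% of genes passed between 3 in vivo and 5 serum embryos. MT-CO2 was higher in vivo (1.27, SE 0.21, adjusted p = 0.0447), at 5969, 6511 and 9191 CPM against 2141, 2804, 3060, 3105 and 3640 in serum. No nuclear row of 88 passed by edgeR's quasi-likelihood test, 13 had an unadjusted p under 0.05, as had 21.1% of all genes, and the edgeR exact test called 0 and DESeq2 3. Without B2, 8 mitochondrial and 4 nuclear rows passed, and 7.13% of all genes, while without any other embryo no row of either kind passed. Between female in vivo and serum-free embryos 0.304% of genes and no row of the set passed. There 5 mitochondrial and 3 nuclear rows and 14% of all genes had an unadjusted p under 0.05, and the exact test and DESeq2 each called 1 mitochondrial and 0 nuclear rows. All 13 mitochondrial log2 fold changes were positive, with a median of 0.50, against 49.1% of all genes. These rows are transcribed together and are not independent. Of the 3 serum-free females, C3 had a mitochondrial share of 3.57% of exon counts, against 5.82% in C8 and 7.00% in C10.

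Whether the culture change differs by sex was tested as an interaction. No gene passed in either, serum or serum-free, by the quasi-likelihood test or, among the rows of the set, by DESeq2. Unadjusted p-values under 0.05 were found for 5 mitochondrial and 3 nuclear rows with serum, where 5.16% of all genes had one, and for 3 and 6 with serum-free, where 6.59% did. The interaction estimate, male change minus female change, was negative for all 13 mitochondrial rows in both, while 51.5% of all genes with serum and 47.4% with serum-free had a positive one. The mitochondrial medians were -0.62 and -0.48, against 0.02 and -0.03 over all genes, and rows transcribed together are not independent. The nuclear estimates leaned the same way, negative for 67 of 88 rows with serum and 70 of 87 with serum-free. Their medians were -0.24 and -0.21. Both interactions use the same in vivo embryos of each sex, so they are not independent of each other. The smallest adjusted p of any mitochondrial row was 0.664 with serum and 0.585 with serum-free.

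Sex itself was compared within each culture. In vivo, 1.26% of genes passed, 0.954% lower in males, and of the nuclear rows NDUFA1 and NDUFB11, both accessory subunits of complex I whose genes lie on the X chromosome in mammals, were lower in males. NDUFA1 was at 46.8 to 69.2 CPM in 5 males and 125, 145 and 158 in 3 females in vivo, at 59.6, 73.6 and 89.3 in 3 males and 109 to 168 in 5 females in serum, and at 58.7 to 105 in 5 males and 160, 163 and 164 in 3 females in serum-free embryos. No male reached any female in any group, as held for 9.88% of all genes in vivo, 6.04% in serum and 6.77% in serum-free embryos in either direction. Male over female, the log2 fold change was -1.22 (SE 0.17, adjusted p = 0.00175) in vivo, -0.86 (adjusted p = 0.557) in serum and -0.94 (adjusted p = 0.159) in serum-free embryos.

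NDUFB11 was at 126 to 168 CPM in males and 227 to 303 in females in vivo, 124 to 208 and 245 to 327 in serum, and 171 to 200.5 and 255 to 302 in serum-free embryos. The sexes were again separate in each culture, with log2 fold changes of -0.85 (SE 0.14, adjusted p = 0.00628), -0.71 (adjusted p = 0.632) and -0.50 (adjusted p = 0.416). Over all 24 embryos, the 13 males and 11 females did not overlap in these 2 of 101 rows, against 0.225% of 7557 genes.

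No mitochondrial row differed between the sexes by edgeR in any culture, with 3, 2 and 3 at an unadjusted p under 0.05 in vivo, in serum and in serum-free embryos, where 13.5, 6.24 and 8.01% of all genes had one. DESeq2 called 0 of them in each culture. In serum 0.173% and in serum-free embryos 0.152% of all genes passed, and no nuclear row did, with 5 and 12 at an unadjusted p under 0.05 and 0 and 2 called by DESeq2. The in vivo nuclear count was 1 without A6 and 3 without A7. From the pathway lists, named after their values were seen, HSD17B10, part of the enzyme that trims mitochondrial transfer RNAs (-0.94, adjusted p = 0.00179), and SLC25A5 (-0.88, adjusted p = 0.0115), both X-linked in mammals as well, were lower in males in vivo.

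**Figure D5:**
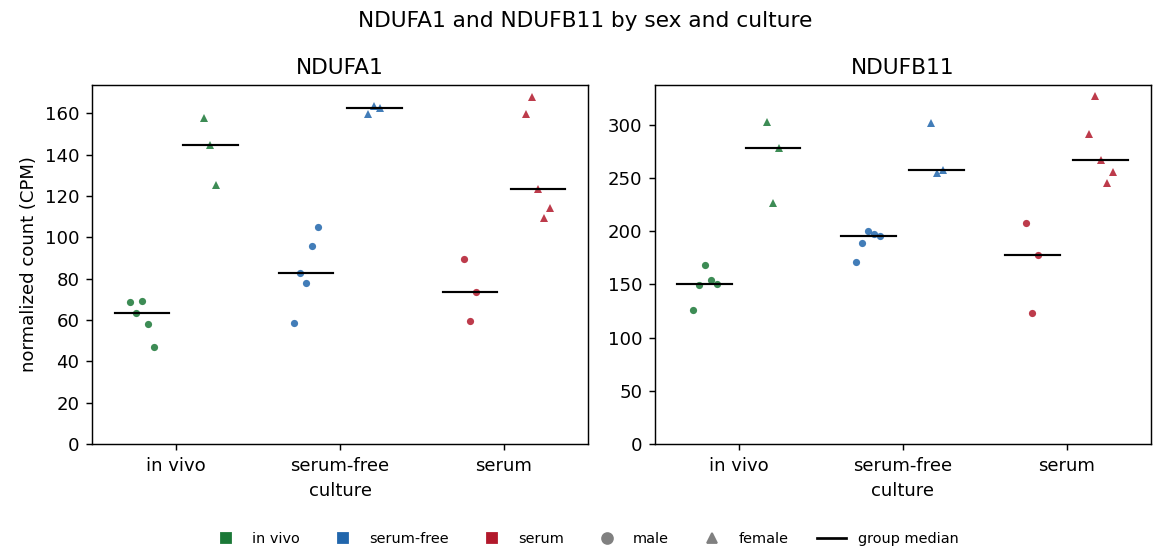
NDUFA1 and NDUFB11 in single embryos by culture and sex, in CPM on linear axes from 0, with 1 point per embryo (circle male, triangle female) and a bar at the group median. All 13 males lie below all 11 females in both genes, with NDUFA1 at 46.8 to 105 CPM in males and 109 to 168 in females.

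Some nuclear rows are numbered copies of 1 symbol, whose sequences were not compared here. Between copies of like sequence reads can be split or lost, because only uniquely mapped fragments were counted. ATP5E_2 held 3.75 to 52.1% of the counts of the ATP5E copies in vivo, 4.65 to 55.3% in serum and 4.25 to 83.3% in serum-free embryos, and COX7B_2 held 14.9 to 90.1%, 14.3 to 91.0% and 22.1 to 82.5% of those of COX7B. These shares varied as widely within a culture as between cultures, so the values of single copies are uncertain. COX5B_1 held at least 99.8% of the COX5B counts in each embryo and was higher in vivo than in serum (0.46, adjusted p = 0.0484) and in serum-free than in serum embryos (0.63, adjusted p = 0.0298). No mature sequence, protein or gene length is shown for the set, since none was used here, and levels were therefore compared between embryos and not between genes.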

How the data were processed

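RNA of 24 single blastocysts was amplified with a SMARTer kit that does not keep strand and sequenced as paired reads. Per the labels and the study's methods, the authors mapped the reads to the bovine genome UMD 3.1 with the CLC Genomics Workbench and counted uniquely mapped fragments in annotated exons. The deposited values are raw counts, with 1 column per embryo and every column matched to its embryo. They ran from 3253051 to 9000447 per embryo, and a count of 0 allows 3 counts. Counting intervals cover counting error only.

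Genes with at least 15 counts in every embryo of 1 of the groups compared were tested with edgeR 4.0.16 (quasi-likelihood, TMM factors, R 4.3.3), adjusted by Benjamini-Hochberg over all genes tested. A row passed with an adjusted p under 0.05. The study's methods used the edgeR exact test, which was run as an alternative, as was DESeq2 1.42.0. CPM used TMM factors over the 7557 genes kept in 24 embryos. The test was checked on simulated counts. Each embryo was 1 replicate.

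Named were all mitochondrial rows, nuclear rows passing with a fold of at least 2, the 5 largest changes in each direction per culture comparison, listed isoform pairs, the SDH and CYC1 rows, and pathway genes passing with a fold of at least 2. CYCS was found only as numbered copies and was not matched. Single values of some rows are not reported here. The members, lists and tests were chosen with earlier results of these data known.

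Embryo numbers recur across cultures. Alternatives covered scaling, count filters, a sex covariate, 1 fit over all embryos, a replicate block and each embryo left out.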

Additional observations from a re-analysis of the deposited data

Results flagged for a closer look

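In 20 of 153 sets of 8 embryos tested, the highest or lowest embryo stood apart from the other 7 by Dixon's criterion, which chance alone meets in about 1 set in 20. All values are in CPM, and no explanation was tested.

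Serum embryo B1 was the high embryo in COX1 (20170, the others 4215 to 11552), COX3 (20610, the others 8508 to 13472), MT-CO2 (6814, the others 2141 to 3640), UQCR11 (142, the others 15.7 to 64.9), COX7A2 (922, the others 317 to 602) and CYC1 (149, the others 20.1 to 70.9). Serum embryo B2 was the high embryo in ND5 (18125, the others 4082 to 10252), ND6 (4258, the others 980 to 2433), ELAC2 (28.4, the others 9.04 to 17.1) and TFAM (150.2, the others 79.3 to 108).

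Serum-free embryo C3 was low in ND4L (261, the others 540 to 792) and ND6 (388, the others 1409 to 2210). C1 was low in NDUFS6 (30.3, the others 52.7 to 68.5) and high in PPARGC1A (45.5, the others 4.81 to 20.6). C4 was high in NDUFAF2 (23.5, the others 11.8 to 17.1) and C7 in ATP5G2 (449.7, the others 249 to 334).

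In vivo, A6 was high in ATP8 (887, the others 522 to 677), A3 in ACAD9 (119, the others 51.9 to 74.4) and SDHB (235, the others 172 to 195), and A4 in SDHD (151, the others 127 to 133).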

How the results depend on the processing

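The nuclear median between in vivo and serum embryos was positive under every alternative scaling, filter, test and design tried (0.17 to 0.30). Counts of passing rows moved more. Without a count filter, 10 nuclear rows passed in vivo against serum, 2 in vivo against serum-free and 2 serum-free against serum. In the main test, with its count filter, a fold of at least 2 left nuclear counts of 1, 1 and 2 and mitochondrial counts of 1, 0 and 0. In vivo against serum-free, 1 mitochondrial row passed with DESeq2 size factors, with scaling on nuclear rows, without a count filter or with 15 counts in every embryo of both groups, and in 1 fit over 24 embryos 0 mitochondrial and 0 nuclear rows passed. Serum-free against serum, 7 nuclear rows passed with library totals, 7 with a sex covariate and 24 in 1 fit, where 2 mitochondrial rows passed. Library totals moved the share of positive calls from 47.5 to 37.2% in vivo against serum and from 49.2 to 38.5% serum-free against serum, and 1 fit from 42.0 to 30.4% in vivo against serum-free. By DESeq2, 10 nuclear rows passed between male in vivo and serum embryos, 5 between males in vivo and serum-free (4 by the exact test), 3 nuclear and 3 mitochondrial rows between females in vivo and serum (3 mitochondrial by the exact test), 1 mitochondrial row between females in vivo and serum-free (1 by the exact test), and 6 and 2 nuclear rows between the sexes in vivo and serum-free. The cause of these moves was not tested.

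Leaving out each embryo in turn, the mitochondrial counts ran from 2 to 4 in vivo against serum, 0 to 2 in vivo against serum-free, 0 to 2 serum-free against serum, 1 to 4 and 0 to 1 for males against serum and serum-free, and 0 to 8 for females against serum. The nuclear counts ran from 11 to 34, 3 to 8, 3 to 28, 3 to 33, 0 to 4 and 0 to 4 in the same order, and from 1 to 3 between the sexes in vivo, and all other counts stayed at 0. The log2 ratio of mean mitochondrial shares ran from 0.12 to 0.31 in vivo over serum and of nuclear shares from 0.13 to 0.29.

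Same-numbered embryos of different cultures did not deviate together (correlations -0.18 to 0.11 over 7 pairs per comparison), and in 1, 2 and 0 cases did an embryo correlate best with its own number, so the numbers were not read as a pairing. With the replicate number as a block, 1 mitochondrial and 7 nuclear rows passed in vivo against serum, 0 and 1 in vivo against serum-free and 0 and 0 serum-free against serum, with 1077, 160 and 30 calls over all genes. Single genes named in the text were followed over the alternatives other than leaving out each embryo in turn. These alternatives include the replicate block, which used only the 7 pairs. The values kept direction and side of the threshold in 1309 cases and lost the threshold in 87. They came to pass it in 48 and changed sign without having passed in 22. With an embryo left out these were 2091, 167, 30 and 64, the sign changes again in values that had not passed, such as ND2 in vivo over serum (-0.11 to 0.17). No value that passed changed sign.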
